A study of Solanum lycopersicum and Solanum pimpinellifolium with 9 samples.

Results

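The circadian clock genes of tomato were followed through 9 libraries of plant tissue. The 9 members, of 34727 gene IDs in the deposited table, were taken by ID: GIGANTEA (GI) Solyc04g071990 and GI Solyc12g056650, LATE ELONGATED HYPOCOTYL (LHY) Solyc10g005080, TIMING OF CAB EXPRESSION 1 (TOC1) Solyc03g115770, the pseudo-response regulators PRR5 Solyc03g081240 and PRR9 Solyc10g005030, EARLY FLOWERING 3 (ELF3) Solyc08g065870, EID1 Solyc09g075080 and LNK2 Solyc01g068560. The gene names came with the member list, since the deposited table holds IDs only and the reference gene table held 0 of the 9 IDs. The libraries came from Solanum lycopersicum cultivar MoneyMaker, a cultivated tomato, and from accession LA0722 of Solanum pimpinellifolium, its wild relative. MoneyMaker gave grown root, upper stem from under the apex, fully expanded leaf of 2 to 3 weeks, complete flower at anthesis from which sepals were left out, and 3 stages of fruit, which are mature green, breaker (when colour first shows) and ripe. LA0722 gave fully expanded leaf of 2 to 4 weeks and ripe fruit. All plants grew in a greenhouse in days of 16 h light and 8 h dark, with no other treatment named. The time of day at which tissue was collected is not given in the sources used here. Because each group is 1 library, a difference of tissue or species cannot be told apart from one of collection time or of the single library. Where libraries differ in both tissue and species, these cannot be told apart either.

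The plant clock is a loop of genes that repress each other in turn through the day. The roles given here are known from Arabidopsis unless tomato is named. LHY is a MYB transcription factor whose transcript peaks around dawn and which represses evening genes such as TOC1 and GI. PRR9, PRR5 and TOC1 are related repressors of LHY whose transcripts peak in that order from morning to evening. GI, a large protein with a late-day peak, acts in light input, flowering and the turnover of TOC1. ELF3 is the scaffold of the evening complex, EID1 is an F-box protein of light signalling, and LNK2 is a co-activator of evening genes. In tomato, variants of EID1 and LNK2 are known for slowing the rhythm of cultivated plants.

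Each value is in RPKM, which divides reads by gene length and library size, as deposited, and rests on 1 library. The whole reads behind each value were recovered from the steps of the values, and the totals they imply ran from 211201 reads in LA0722 ripe fruit to 380306 in MoneyMaker leaf. All intervals below are exact 95% intervals of these reads. They cover counting error only, and the spread between plants was not measured. The members rested on few reads at this depth. Their reads summed to between 21 in LA0722 ripe fruit and 215 in LA0722 leaf. All 9 members were above 0 in stem, both leaf libraries, mature green fruit and breaker fruit, 8 in root, 7 in each ripe fruit library and 4 in flower. In whole tissue, fewer cells that express a gene and less RNA per cell cannot be told apart.

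**Figure D1:**
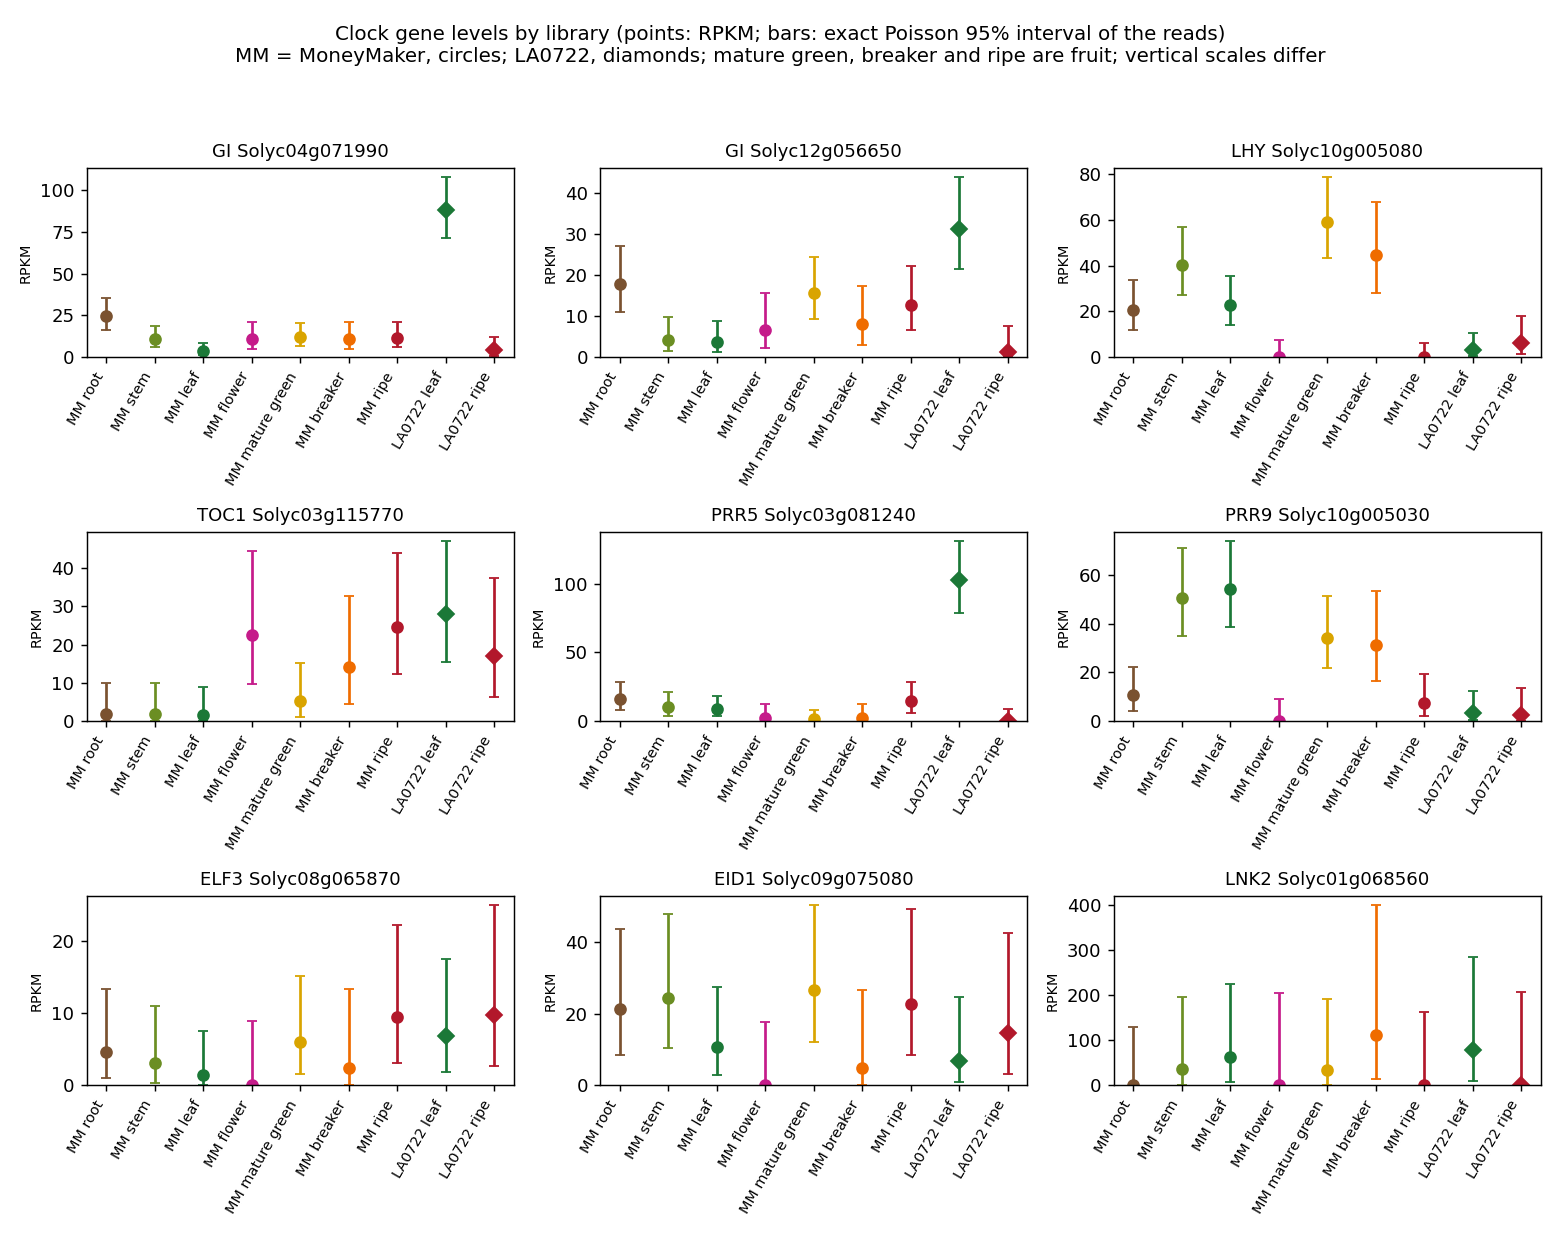
Level of each of the 9 clock genes in the 9 libraries. Points give RPKM (vertical axis, scale differing by panel), circles for MoneyMaker and diamonds for LA0722, and bars give the exact Poisson 95% interval of the reads; LHY and PRR9 are high in MoneyMaker stem, leaf, mature green and breaker fruit, while both GI genes and PRR5 are highest in LA0722 leaf.

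The dawn and morning genes LHY and PRR9 were high in the same libraries. LHY stood at 59.2 RPKM (47 reads) in mature green fruit, 44.8 (22 reads) at the breaker stage, 40.2 (31 reads) in stem, 23.0 (20 reads) in MoneyMaker leaf and 20.7 (16 reads) in root. It stood at only 6.21 RPKM (3 reads) in LA0722 ripe fruit and 2.90 RPKM (2 reads) in LA0722 leaf. LHY was listed at 0 in flower and in MoneyMaker ripe fruit, where the exact upper limits of a count of 0 are 7.54 and 5.96 RPKM. The leading libraries did not differ beyond counting error: the ratio of mature green to stem had an interval of 0.92 to 2.40, and that of mature green to breaker one of 0.78 to 2.30.

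PRR9, the earliest of the pseudo-response regulators in the day, was highest in MoneyMaker leaf at 54.3 RPKM (40 reads). It stood at 50.5 RPKM (33 reads) in stem, 34.2 (23 reads) in mature green fruit, 31.3 (13 reads) in breaker fruit and 10.7 (7 reads) in root. Lower values were 7.63 RPKM (4 reads) in MoneyMaker ripe fruit, 3.43 (2 reads) in LA0722 leaf and 2.44 (1 read) in LA0722 ripe fruit, with 0 in flower. The levels of leaf, stem, mature green and breaker fruit were not told apart by counting error, while the step from breaker fruit down to root was (ratio 1.09 to 8.66). LHY and PRR9 had the same 4 highest libraries by value, in another order, but for LHY the lowest of these, MoneyMaker leaf, was not told apart from root (ratio 0.55 to 2.29).

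PRR5, which follows PRR9 in the day, was highest in LA0722 leaf, at 102 RPKM (63 reads), with an interval of 78.8 to 131 RPKM. The next library was root at 15.9 RPKM (11 reads), and the ratio of the pair had an interval of 3.36 to 13.5. MoneyMaker ripe fruit stood at 14.5 RPKM (8 reads), stem at 10.2 (7 reads) and MoneyMaker leaf at 9.01 (7 reads). Flower, breaker and mature green fruit held 1 read each, at 2.29, 2.28 and 1.41 RPKM, and LA0722 ripe fruit was listed at 0. PRR5 was thus low in mature green and breaker fruit, where LHY was highest. It was also low in flower and LA0722 ripe fruit, where LHY stood at 0 and 6.21 RPKM.

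TOC1, the evening repressor of LHY, was also highest in LA0722 leaf, at 28.1 RPKM (14 reads), but MoneyMaker ripe fruit at 24.5 (11 reads), flower at 22.6 (8 reads), LA0722 ripe fruit at 17.1 (6 reads) and breaker fruit at 14.0 (5 reads) did not differ from it beyond counting error. It stood at 5.21 RPKM (3 reads) in mature green fruit and rested on 1 read in each of stem, root and MoneyMaker leaf, at 1.79, 1.78 and 1.59 RPKM. The 3 libraries with a single TOC1 read all held 16 or more LHY reads, and flower and MoneyMaker ripe fruit, with 8 and 11 TOC1 reads, held 0 LHY reads. Breaker fruit went against this pattern, with 5 TOC1 reads and 22 LHY reads.

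Both GI genes were highest in LA0722 leaf and next highest in root. GI Solyc04g071990 stood at 88.2 RPKM (93 reads) in LA0722 leaf and at 24.5 (29 reads) in root, a ratio with an interval of 2.35 to 5.67. It then stood at 12.3 RPKM in mature green fruit, 11.6 in MoneyMaker ripe fruit, 11.01 in stem, 10.7 in flower and 10.6 in breaker fruit, which lie within counting error of each other, and at 4.05 in LA0722 ripe fruit and 3.75 in MoneyMaker leaf. GI Solyc12g056650 stood at 31.3 RPKM (33 reads) in LA0722 leaf and 17.7 (21 reads) in root, which did not differ beyond counting error (ratio 0.99 to 3.21). It stood at 15.6 RPKM in mature green fruit, 12.7 in MoneyMaker ripe fruit, 7.98 in breaker fruit, 6.68 in flower, 4.23 in stem, 3.75 in MoneyMaker leaf and 1.35 (1 read) in LA0722 ripe fruit.

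The lengths implied by the steps of the values were 3504 nt for each GI gene, so their reads can be set side by side. Over the 9 libraries GI Solyc04g071990 held 185 of the 292 GI reads, 63.4% (57.5 to 68.9%). In LA0722 leaf it held 93 of 126, 73.8% (65.2 to 81.2%), and in mature green fruit 15 of 34, 44.1% (27.2 to 62.1%). These 2 intervals do not overlap, while the intervals of the other 7 libraries, with 4 to 50 GI reads each, overlap that of LA0722 leaf. Mature green fruit had the lowest share of the 9 libraries, and no difference between libraries was tested. How reads that fit both genes were counted is not given in the sources used here, so the split between the GI genes is uncertain to that extent.

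ELF3 and EID1 rested on few reads, at most 5 and 9 in a library. ELF3 stood between 1.36 RPKM (1 read) in MoneyMaker leaf and 9.79 RPKM (4 reads) in LA0722 ripe fruit, with MoneyMaker ripe fruit at 9.55 (5 reads), and was listed at 0 in flower. No library differed from the highest beyond counting error. EID1 stood at 26.5 RPKM (9 reads) in mature green fruit, 24.3 (8 reads) in stem, 22.7 (6 reads) in MoneyMaker ripe fruit, 21.2 (7 reads) in root, 14.5 (3 reads) in LA0722 ripe fruit, 10.8 (4 reads) in MoneyMaker leaf, 6.80 (2 reads) in LA0722 leaf and 4.76 (1 read) in breaker fruit. Among the libraries above 0 none differed from mature green fruit beyond counting error, and the 0 of flower has an exact upper limit of 17.6 RPKM.

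LNK2 had high values that may rest on very few reads. Its 111 RPKM in breaker fruit was the highest value of any member in any library, yet the smallest solution for the steps of its values is 2 reads on a gene model of 84 nt, shorter than the reads of about 400 bp that the protocol aimed for. LNK2 stood at 79.1 RPKM in LA0722 leaf and 62.6 in MoneyMaker leaf on 2 reads each, and at 35.3 in stem and 34.3 in mature green fruit on 1 read each. It was listed at 0 in root, flower and both ripe fruit libraries, where 3 reads would be worth 106 to 169 RPKM, about the size of its highest value or above it. These read numbers are the smallest that fit, and a common multiple of reads and length would fit as well. If the smallest numbers hold, no difference of LNK2 between libraries was detectable at this depth, and with a longer model and more reads some could be.

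To set the morning genes against the later ones within each library, the reads of LHY and PRR9 were taken as a share of the reads of these genes plus TOC1, PRR5 and both GI genes. This grouping follows the known times of peak in Arabidopsis and was made after the values had been seen. The other members, ELF3, EID1 and LNK2, were left out of both groups. Because numerator and denominator come from the same library, the share does not depend on how libraries are scaled. The share counts reads without dividing by gene length, so longer genes weigh more. The implied lengths were 3504 nt for each GI gene, 2289 nt for LHY and 1938 nt for PRR9. LHY and PRR9 held 76.9% (66.0 to 85.7%) of 78 reads in MoneyMaker leaf, 71.1% (60.6 to 80.2%) of 90 in stem, 64.8% (55.0 to 73.8%) of 108 in mature green fruit and 63.6% (49.6 to 76.2%) of 55 in breaker fruit. They held 27.1% (18.0 to 37.8%) of 85 reads in root, 8.70% (2.42 to 20.8%) of 46 in MoneyMaker ripe fruit, 1.93% (0.53 to 4.87%) of 207 in LA0722 leaf, 28.6% (8.39 to 58.1%) of 14 in LA0722 ripe fruit and 0 of 22 in flower, for which the exact upper limit is 15.4% and 3 reads would be 13.6%.

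The shares thus were 63.6 to 76.9% in 4 MoneyMaker libraries and 0 to 28.6% in the other 5. Of these 5 only LA0722 ripe fruit, with 14 reads, had an interval that overlapped any of the 4. It overlapped those of mature green and breaker fruit, but not those of stem and MoneyMaker leaf. Leaf was among the high shares in MoneyMaker and among the low ones in LA0722. With any 1 of the 6 genes left out, the share stayed between 52.6 and 84.5% in MoneyMaker leaf and between 0.98 and 3.51% in LA0722 leaf. With LHY left out it was 37.7% in mature green fruit and 39.4% in breaker fruit. Root reached 41.1% with GI Solyc04g071990 left out, and LA0722 ripe fruit 4 of 8 reads with TOC1 left out. Whichever of the 6 genes was left out, the same 4 libraries had higher shares than the other 5. The split was read from these same reads, so this describes the shares and is no separate check on them.

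**Figure D2:**
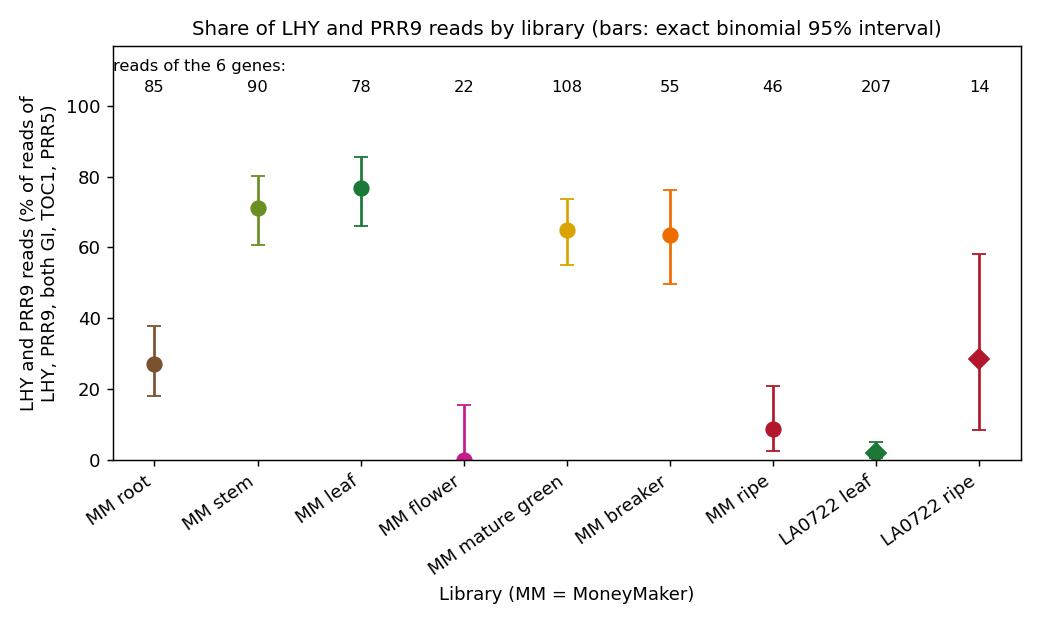
Reads of LHY and PRR9 as a percentage of the reads of LHY, PRR9, TOC1, PRR5 and both GI genes (vertical axis) in each of the 9 libraries, with exact binomial 95% intervals and the number of reads above. MoneyMaker leaf stands at 76.9% and LA0722 leaf at 1.93%.

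The comparison of LA0722 with MoneyMaker asks which genes differ between the wild and the cultivated species in the same organ. The rule of size called a gene higher or lower when log2(RPKM + 5) differed by 2 or more, that is 4-fold, and 1 library of the pair reached 25 RPKM. The pseudocount of 5 understates the fold of low genes. In leaf, 6 of the 9 members reached 25 RPKM. Of these, 4 were higher in LA0722, where 17.1% of the 7015 genes compared were higher, and 1 was lower, against 15.2%. The median difference of all 9 members, including those below 25 RPKM, was 0.90 log2 units, which is the value of ELF3 on 1 and 4 reads. That of all genes compared, which reached 25 RPKM, was 0.60, so the medians cover unlike sets.

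The 4 higher members were both GI genes, PRR5 and TOC1. GI Solyc04g071990 went from 3.75 RPKM (5 reads) in MoneyMaker leaf to 88.2 (93 reads) in LA0722 leaf, a difference of 3.41 log2 units and a 23.5-fold ratio (9.72 to 74.1), the 217th largest of the 7015. PRR5 went from 9.01 (7 reads) to 102 RPKM (63 reads), a difference of 2.94 and an 11.4-fold ratio (5.21 to 29.4). TOC1 went from 1.59 RPKM (1 read) to 28.1 (14 reads), a difference of 2.33, with a ratio of 17.6 (2.69 to 748) whose width comes from the single read. GI Solyc12g056650 went from 3.75 (5 reads) to 31.3 RPKM (33 reads), a difference of 2.05 and an 8.35-fold ratio (3.24 to 27.4). All 4 are genes with a peak from afternoon to evening in Arabidopsis.

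LHY and PRR9 differed the other way. PRR9 was at 54.3 RPKM (40 reads) in MoneyMaker leaf and 3.43 (2 reads) in LA0722 leaf, a difference of -2.81 log2 units and a 15.8-fold ratio (4.10 to 135) in favour of MoneyMaker. LHY, at 23.0 RPKM (20 reads) and 2.90 (2 reads), did not reach 25 RPKM in either library and so was not compared by the rule, with a difference of -1.82 and a ratio of 7.92 (1.92 to 69.8) in favour of MoneyMaker. ELF3 at 1.36 and 6.87 RPKM, EID1 at 10.8 and 6.80 and LNK2 at 62.6 and 79.1 rested on 1 to 4 reads a library, and their ratios had intervals that include 1. Counted by intervals that exclude 1 instead, 4 members were higher, against 17.8% of the 17181 genes with a read in either leaf library, and 2 were lower, PRR9 and LHY, against 9.91%.

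Other scalings of the libraries moved the leaf comparison as a whole by up to -0.71 log2 units. This is less than the 2 log2 units of the rule, so no called member could change direction. Under upper-quartile scaling and under median-ratio size factors GI Solyc12g056650, at 1.75 and 1.68, no longer reached 2, while LHY, at -2.31 and -2.38, passed as lower.

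**Figure D3:**
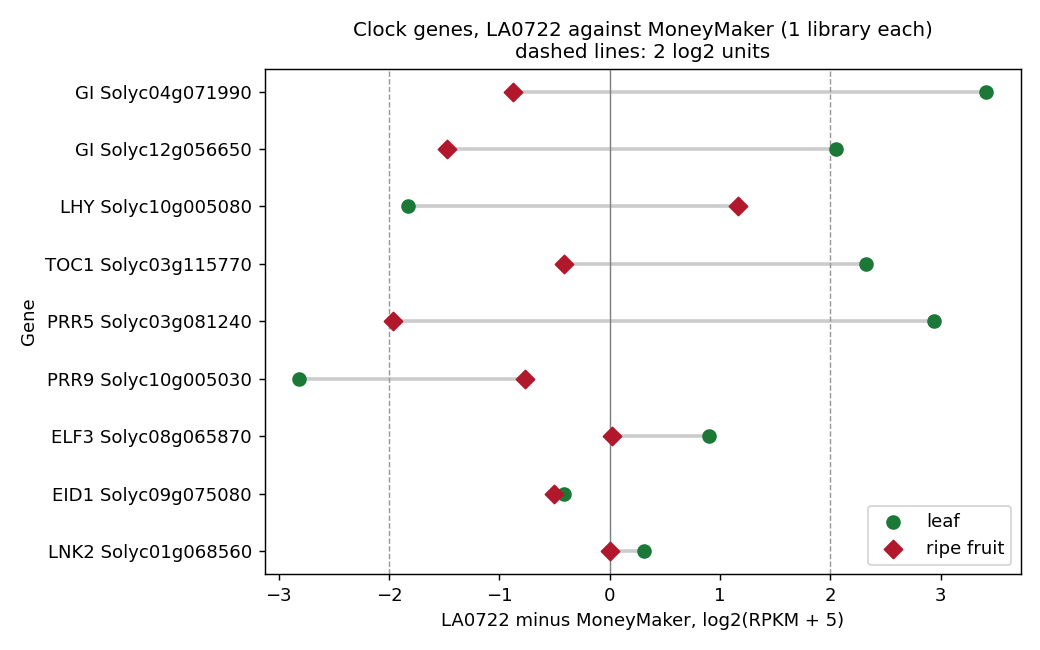
Difference of each clock gene between LA0722 and MoneyMaker in log2(RPKM + 5) (horizontal axis), green circles for leaf and red diamonds for ripe fruit, 1 library each, with dashed lines at 2 log2 units. In leaf both GI genes, PRR5 and TOC1 lie to the right of the upper line and PRR9 to the left of the lower one; in ripe fruit no member passes either line.

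In ripe fruit no member reached 25 RPKM in either species, so 0 of the 9 could be compared by the rule, under which 9.09% of 7088 genes were higher and 14.1% lower in LA0722. The reads were also few, 57 for all members in MoneyMaker and 21 in LA0722. The intervals of 2 members excluded 1, both lower in LA0722. GI Solyc12g056650 stood at 12.7 RPKM (12 reads) in MoneyMaker and 1.35 (1 read) in LA0722, a 9.38-fold ratio (1.39 to 401). PRR5 stood at 14.5 RPKM (8 reads) in MoneyMaker and was listed at 0 in LA0722, at least 1.33-fold lower by the exact interval and 2.08-fold lower when the 0 is set to a floor of 3 reads. Among the 15049 genes with a read in either library, 11.3% were lower and 8.35% higher by such intervals.

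GI Solyc04g071990 at 11.6 and 4.05 RPKM, TOC1 at 24.5 and 17.1, PRR9 at 7.63 and 2.44, ELF3 at 9.55 and 9.79 and EID1 at 22.7 and 14.5 RPKM in MoneyMaker and LA0722 ripe fruit had intervals that include 1. LHY rested on 3 reads in LA0722 and none in MoneyMaker, and LNK2 was at 0 in both. The differences of both GI genes, PRR5 and TOC1 were above 0 in leaf and below 0 in ripe fruit.

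Fruit ripening in MoneyMaker was followed in 3 stages. From mature green to breaker fruit 4 members reached 25 RPKM, and none was higher or lower by the rule, under which 8.51% of 8098 genes were higher and 11.5% lower in breaker fruit. LHY went from 59.2 to 44.8 RPKM, a ratio of 0.76 (0.43 to 1.28), and PRR9 from 34.2 to 31.3, a ratio of 0.91 (0.43 to 1.88). EID1 went from 26.5 RPKM (9 reads) to 4.76 (1 read), a difference of -1.69 with a 5.57-fold ratio (0.77 to 244) in favour of mature green fruit. The fourth was LNK2, at 34.3 and 111 RPKM, on 1 and 2 reads by the smallest solution.

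From breaker to ripe fruit LHY was lower. It went from 44.8 RPKM (22 reads) to 0, at least 6.90-fold lower by the exact interval and 9.24-fold lower when the 0 is set to a floor of 3 reads, with a difference of -3.32 that ranked 199 from the lowest among the 7255 genes compared. PRR9 went from 31.3 RPKM (13 reads) to 7.63 (4 reads), a difference of -1.52 and a 4.10-fold ratio (1.27 to 17.2) in favour of breaker fruit. LNK2, the other member past the rule, went from 111 RPKM to 0, which is 2 reads to 0 by the smallest solution and then within counting error. So 2 of 3 members compared were lower and 0 higher, where 8.53% of all genes were lower and 7.07% higher. By intervals that exclude 1 the lower members were LHY and PRR9 and none was higher, against 7.61% lower and 7.44% higher among 15518 genes.

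For the later genes the ratios of this step had intervals that include 1. TOC1 went from 14.0 to 24.5 RPKM, a ratio of 1.75 (0.56 to 6.41), and PRR5 from 2.28 (1 read) to 14.5 (8 reads), a ratio of 6.35 (0.85 to 282). GI Solyc04g071990 went from 10.6 to 11.6 RPKM and GI Solyc12g056650 from 7.98 to 12.7. ELF3 went from 2.41 (1 read) to 9.55 (5 reads) and EID1 from 4.76 (1 read) to 22.7 (6 reads), ratios whose intervals include 1.

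No member was predominant in a single MoneyMaker library, meaning that its highest level passed the rule of size over its next one. Only LHY, PRR9, EID1 and LNK2 reached 25 RPKM in a MoneyMaker library, so the other members could not pass. Of the 12519 genes at that level, 16.3% were predominant. Whether so few members differ from that share was not tested. The differences between the highest and the next library ran from 0.09 log2 units for PRR9, with leaf and stem close together, to 0.78 for LNK2.

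Across the 9 libraries, which share their scaling and differ in depth, LHY and PRR9 were alike, and so were the GI genes. PRR5 was like the GI genes mainly through LA0722 leaf. On the scale of log2(RPKM + 5), LHY and PRR9 had a Pearson correlation of 0.85 and the GI genes one of 0.88. PRR5 correlated with GI Solyc04g071990 at 0.84 and with GI Solyc12g056650 at 0.70, but without LA0722 leaf these values were 0.45 and 0.39. LNK2, on its few reads, correlated with PRR9 at 0.64 and with LHY at 0.58, and without LA0722 leaf at 0.87 and 0.79. TOC1 ran against both morning genes, at -0.75 with LHY and -0.76 with PRR9, and at -0.72 with each of them without LA0722 leaf. TOC1 was only weakly like the other evening genes, at 0.30 with GI Solyc04g071990 and 0.16 with PRR5, and at -0.16 and -0.42 without LA0722 leaf. These values describe 9 libraries, many of them on a handful of reads.

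**Figure D4:**
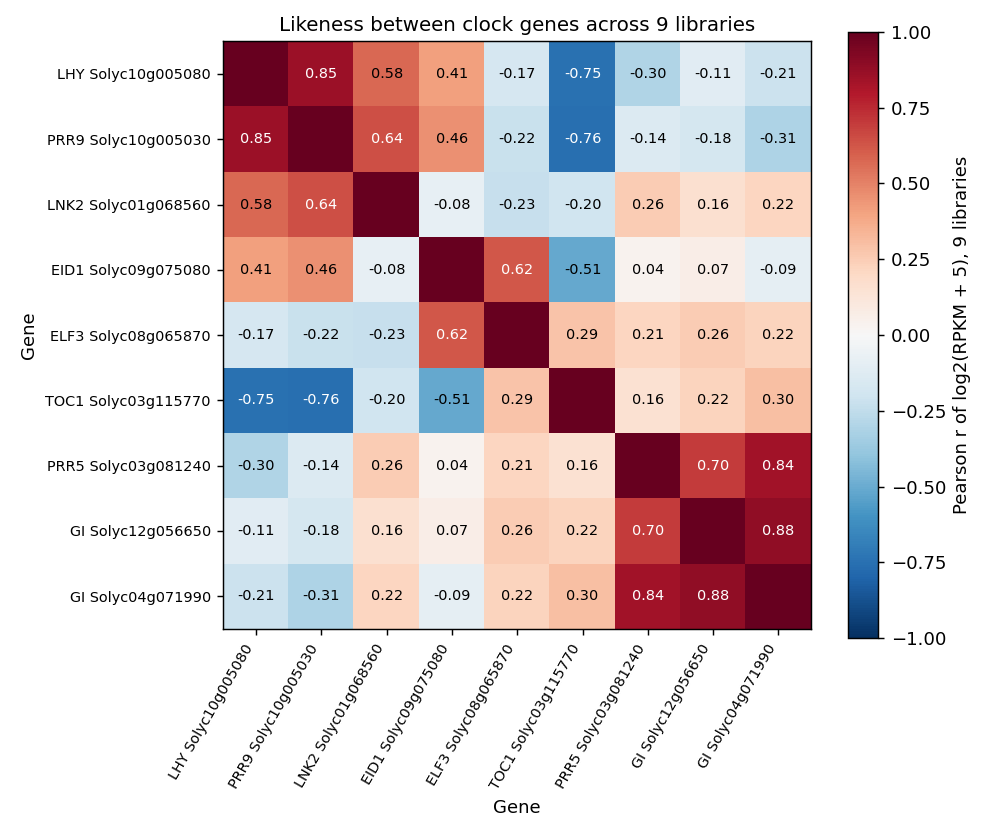
Pearson correlation of log2(RPKM + 5) over 9 libraries for each pair of the 9 clock genes; red is positive and blue negative. LHY with PRR9 (0.85) and PRR5 with the GI genes (0.70 and 0.84) form the red corners, and TOC1 is blue against LHY (-0.75) and PRR9 (-0.76). Without LA0722 leaf, which is not drawn, the values of PRR5 with the GI genes are 0.39 and 0.45.

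Among 13292 other gene IDs at 25 RPKM or more in at least 1 library, the profile most like LHY was that of Solyc05g051060, with a correlation of 0.95 over the 9 libraries. Its levels were 47.2 RPKM at the mature green stage, 21.8 at the breaker stage and 20.8 in stem, and 0 in flower, MoneyMaker ripe fruit and LA0722 leaf. Solyc04g005430 followed at 0.94. The profiles most like GI Solyc04g071990 were those of Solyc10g081840 and Solyc06g053970, each at 0.93. Both were listed above 0 only in LA0722 leaf, at 57.2 and 46.2 RPKM, and in root, at 6.36 and 10.3 RPKM, so these correlations rest mainly on LA0722 leaf. All of these IDs were picked as the highest of 13292 correlations over only 9 libraries. High values can arise from such a search alone, and no likeness was tested.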

How the data were processed

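Transcripts were measured by pyrosequencing of PCR-amplified cDNA, 1 library per group, with a goal of 350000 reads of about 400 bp per library, per the labels' protocols. The deposited values are RPKM, which the authors gave for each gene ID with 2 decimals. HTSeq is named in the submitters' processing notes. For its version, and for aligner, build, annotation and filters, the sources used here give nothing.

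Column names were paired with the labels. A column called mature fruit was assigned to mature green fruit, since no other label has that word. A MoneyMaker berry column, numbered 10, was assigned to ripe fruit by elimination, and results on that library rest on this match.

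Whole reads were recovered with Python 3.11.15 and numpy 2.4.6. Ratios of values between libraries gave their relative depth. The smallest length, a multiple of 3 nt by assumption, at which all values of a gene are whole reads then gave its reads. The recovered reads summed to 90.7% (flower) to 99.7% of the implied totals. On simulated data for 23077 genes, 98.1% of read numbers were recovered exactly, and 99.7% for genes listed in 5 or more libraries. The simulation took the recovered reads as its truth.

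Differences are of log2(RPKM + 5). With 1 library per group no test was run. Intervals are exact Poisson for a level, exact binomial (Clopper-Pearson) for a share, and exact conditional for a ratio, from scipy 1.17.1, all for counting error only. All members are named, and the other IDs named are the 2 most like LHY and the 2 most like the GI gene with the higher summed RPKM. The members, lists and rules were chosen with earlier results of these data known. Alternatives were other pseudocounts, minimum levels, sizes, scalings and a rule on intervals. Further clock genes and tissue markers listed by symbol were not analysed here, as no table used here pairs them with IDs, so tissue labels were not checked against markers. No sequences were used.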

Additional observations from a re-analysis of the deposited data

Results flagged for a closer look

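For 5 of the 9 clock genes the difference between LA0722 and MoneyMaker pointed one way in leaf and the other way in ripe fruit. These genes are listed because the single libraries moved in opposite directions, and the difference between organs was not tested. The leaf difference less the ripe fruit difference, in log2(RPKM + 5), was 4.90 for PRR5 Solyc03g081240, 4.29 for GI Solyc04g071990, 3.53 for GI Solyc12g056650, 2.74 for TOC1 Solyc03g115770 and -2.99 for LHY Solyc10g005080. Among the 6 clock genes at 25 RPKM or more in 1 of the 4 libraries, 4 (66.7%) had opposite directions, as did 40.2% of the 9510 gene IDs at that level. The difference between these shares was not tested. The ripe fruit values rested on 0 to 12 reads per gene and library, and their ripe fruit intervals excluded 1 only for PRR5 and GI Solyc12g056650.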

How the results depend on the processing

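The 5 alternatives run on each difference, the other pseudocounts and scalings, could not turn a member that passed the rule of size. A pseudocount cannot change the direction of a difference, and the scalings shifted comparisons by at most 0.71 log2 units, against 2 for the rule. Unchanged directions are therefore no check on these results. In leaf 5 members passed as deposited, 2 with a pseudocount of 20 RPKM (GI Solyc04g071990 and PRR5), 1 at a minimum level of 100 RPKM (PRR5) and 5 or 6 under the 7 other settings. In ripe fruit of both species 0 passed, and 2 by intervals that exclude 1. From mature green to breaker fruit 0 passed, 1 with a pseudocount of 1 RPKM (EID1, lower) and 2 at 1 log2 unit (LNK2 higher, EID1 lower). From breaker to ripe fruit 2 passed, 1 (LNK2) with a pseudocount of 20 RPKM and at 100 RPKM, and 3 at 1 log2 unit (PRR9 added). No member was predominant in 1 MoneyMaker library under any of the 8 settings tried. Depth limits ELF3, EID1 and LNK2 most, with at most 9 reads in a library. No paired analysis was possible because each group holds 1 library.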
